A study of Mus musculus with 6 samples.

Results

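The genes described here encode the receptors for glutamate and the accessory proteins that travel with them. They are 28 genes of 56805 in the deposited count table, and all 28 have a row in it. They were chosen by name from a fixed list, with earlier results of these data known. The list holds 4 AMPA, 5 kainate, 1 delta and 7 NMDA receptor subunit genes, 7 metabotropic receptor genes and 4 auxiliary subunit genes. Total RNA depleted of ribosomal RNA was sequenced from motor neurons of e12.5 mice in 6 libraries, 3 cervical and 3 thoracic, for a study on how Hox5 activity shapes motor neuron types. All samples are labelled as of control genotype and untreated, so the comparison is between regions of one genotype at one age. The 3 libraries of a region are described as biological replicates. How the motor neurons were isolated, and whether a library holds 1 embryo or a pool, is not stated in the sources used. Deposited counts summed to 32103071 to 33790634 per library, apart from thoracic replicate 1 with 53186131.

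Glutamate is the main fast excitatory transmitter of the spinal cord, and motor neurons receive it from sensory afferents, interneurons and descending axons. AMPA, kainate and NMDA receptors are ion channels built from 4 subunits, and the subunit mix sets their kinetics, calcium entry and magnesium block. Metabotropic receptors are G protein-coupled and act on excitability and transmitter release. At this age motor neurons have left the cell cycle and are extending axons, while most of their synapses have yet to mature.

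AMPA and kainate subunits share a pore loop in which one codon, the Q/R site, sets calcium permeability. In Gria2, Grik1 and Grik2 the adenosine of that codon can be edited to inosine in the RNA, so that glutamine is replaced by arginine. The loop is shown because Grik1 and Grik3, the kainate genes that differed between the regions, both carry it, and because counts per gene do not separate edited from unedited RNA. The sequences come from the GENCODE M21 transcripts (GRCm38), with the Q/R codon in capitals and 18 bases on each side.
Gria1: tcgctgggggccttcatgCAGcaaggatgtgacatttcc
Gria2: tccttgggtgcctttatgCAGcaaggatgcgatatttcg
Grik1: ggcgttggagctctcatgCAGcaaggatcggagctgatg
Grik2: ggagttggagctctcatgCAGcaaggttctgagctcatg
Grik3: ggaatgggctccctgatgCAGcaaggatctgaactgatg
The codon lies in exon 11 of Gria2 (chr3:80706911-80706913, minus strand), exon 13 of Grik1 (chr16:87940542-87940544, minus strand) and exon 12 of Grik3 (chr4:125691207-125691209, plus strand), all coding. In Grik1, Grik2 and Grik3 it stands 4 bases from the end of its exon, and in Gria1 and Gria2 23 bases. Over the 39 bases shown, Grik1 matched Grik2 at 35, Grik3 at 30 and Gria2 at 24.

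All 28 genes gave reads in at least some libraries. Mean levels were at least 100 CPM (counts scaled to the library's total, after TMM correction) for 7 genes, 10 to under 100 CPM for 14, 1 to under 10 CPM for 6 and under 1 CPM for 1. Levels of different genes are compared per kilobase of the exonic length in the table, which adds up the exons of every annotated transcript and so dilutes genes with long alternative exons. On that scale Cnih2, which encodes an AMPA receptor export factor, was highest at 98.2 to 118.8 CPM per kb over the 6 libraries. The kainate subunit genes Grik5 (49.4 to 53.2 CPM per kb) and Grik3 (30.9 to 46.2 CPM per kb) followed, and neither overlapped its neighbours in this order. Gria2, Gria4, Gria1 and Neto2 came next with means of 21.3, 17.8, 16.1 and 14.1 CPM per kb, and the range of each overlapped that of the next. Grm6, known for its role in retinal bipolar cells, had 5, 12 and 0 counts in the cervical and 2, 4 and 0 in the thoracic replicates. It was the 1 member removed by the low-count filter. A count of 0 allows up to 3 counts, or 0.0939 CPM in cervical replicate 3 and 0.0926 CPM in thoracic replicate 3 (counting error only).

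**Figure D1:**
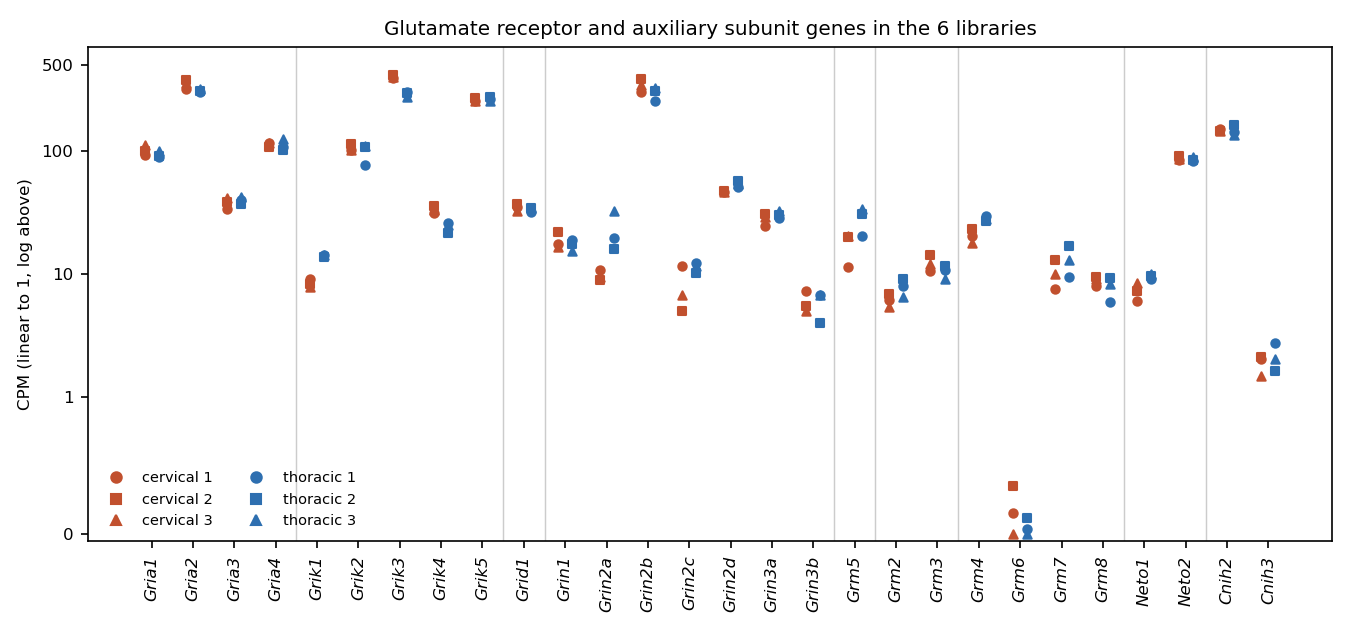
Level of each of the 28 genes in the 6 libraries, in TMM-scaled CPM (linear up to 1, log above), grouped by receptor class with grey lines between classes, cervical libraries in red and thoracic ones in blue. Grik3 separates by region at 393 to 415 against 277 to 299 CPM, whereas the AMPA genes overlap.

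Between the regions 3 members differed. Grik3 was higher in cervical libraries, and Grik1 and Grin2a were higher in thoracic ones. Of the 27 members tested with edgeR's quasi-likelihood test, 1 passed a Benjamini-Hochberg adjusted p of 0.05 toward cervical and 2 toward thoracic. Of all 21972 genes tested, 0.542% were called, 0.191% toward cervical and 0.350% toward thoracic. The members were chosen with earlier results of these data known, so shares of members set beside those of all genes are descriptive and test nothing. An unadjusted edgeR p below 0.05 was found for 9 members (33.3%), against 8.47% of all genes tested. The 3 cervical and 3 thoracic values did not overlap for 8 members, against 13.7% of all genes tested. Cervical lay above for 2 of these members (6.25% of all genes) and thoracic for 6 (7.50% of all genes). The replicate numbers were taken to pair the libraries from these same data, as described with the processing. A fit with the replicate number as a block called 6 members, 2 toward cervical and 4 toward thoracic. That fit called 1.97% of all genes, 0.573% toward cervical and 1.39% toward thoracic. All 3 same-numbered pairs of libraries were higher in cervical for 6 members (15.0% of all genes) and higher in thoracic for 10 (16.4% of all genes). The median log2 fold change (cervical minus thoracic) of the 27 was 0.0039, against 0.0083 over all genes tested, and the median of its absolute size was 0.20 against 0.13. The samples are bulk RNA, in which fewer cells of a type and less RNA per cell cannot be told apart.

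**Figure D2:**
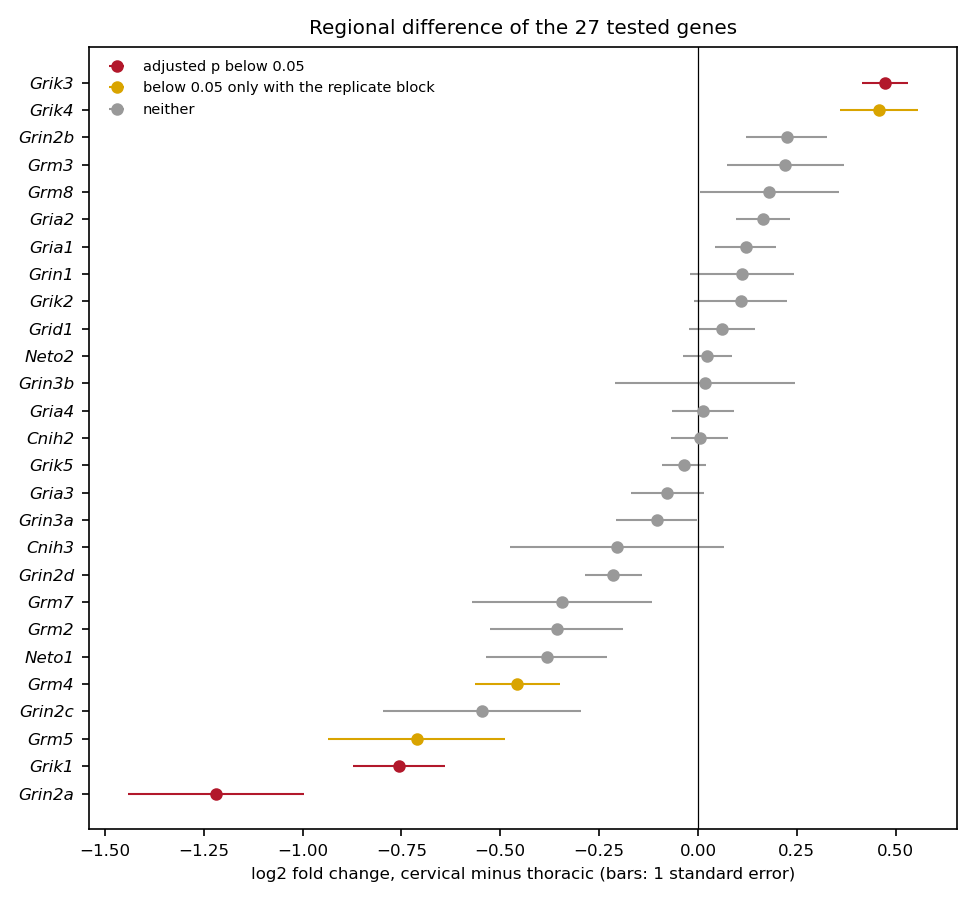
Log2 fold change of the 27 tested genes, cervical minus thoracic, with bars of 1 standard error from edgeR, coloured by whether the adjusted p was below 0.05 without a block, with the replicate block only, or in neither fit. Grik3 and Grik4 lie farthest to the cervical side at 0.47 and 0.46, and Grin2a farthest to the thoracic side at -1.22.

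Kainate receptor genes showed differences in both directions. Grik3, which encodes the low-affinity subunit GluK3, stood at 393, 415 and 403.0 CPM in cervical replicates 1 to 3 and at 299, 295.5 and 277 CPM in the thoracic ones. Every cervical library lay above every thoracic one. The cervical mean exceeded the thoracic one 1.39-fold (403.4 ± 11.1 against 290.5 ± 11.9 CPM, SD, n = 3 each, log2 fold change 0.47 with an SE of 0.06, edgeR adjusted p = 0.0095). The call was lost without cervical replicate 3 (edgeR adjusted p = 0.0576) and held when any other library was left out. Grik3 lies on chromosome 4 from 125384493 to 125607966 (mm39, plus strand).

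Grik1 encodes GluK1, a subunit that like GluK3 can form channels without a high-affinity partner. Its levels were 9.08, 8.36 and 7.85 CPM in the cervical and 14.4, 13.9 and 14.4 CPM in the thoracic replicates. The thoracic libraries were nearly equal to each other, and all lay above the cervical ones. The difference was 1.69-fold toward thoracic (log2 fold change -0.76 with an SE of 0.12, edgeR adjusted p = 0.0218). Of the 6 leave-one-out fits only that without cervical replicate 1 called it, and their adjusted p ran from 0.0195 to 0.119 at log2 fold changes of -0.81 to -0.71. Grik1 lies on chromosome 16 from 87692788 to 88087153 (mm39, minus strand). The ratio of Grik3 to Grik1 per kilobase, taken within each library, was 32.4, 37.2 and 38.4 in the cervical and 15.6, 15.9 and 14.4 in the thoracic replicates. Thus Grik3 exceeded Grik1 in every library, by a larger factor in the cervical ones. Both genes were already called, in opposite directions, so the larger factor restates those calls and is not separate evidence.

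Grik4 and Grik5 encode the high-affinity subunits GluK4 and GluK5, which need a partner from GluK1 to GluK3 to form a channel. Grik4 stood at 31.4, 35.7 and 33.2 CPM in the cervical and 26.2, 21.6 and 25.2 CPM in the thoracic replicates, with no overlap. Its log2 fold change was 0.46 (SE 0.10, edgeR adjusted p = 0.0908), and the block made it a call (adjusted p = 0.0297). Grik5 had 255.3, 267 and 256 CPM in cervical and 267, 275 and 257 CPM in thoracic replicates (log2 fold change -0.03 with an SE of 0.06, edgeR adjusted p = 0.941). The regions overlapped for this gene. Grik2, which encodes GluK2, had 101.4, 113.6 and 102.6 CPM in cervical and 77.0, 108.9 and 109.1 CPM in thoracic replicates. Its low value in thoracic replicate 1 sets the sign of its log2 fold change, which was 0.11 (SE 0.12, edgeR adjusted p = 0.902) and -0.05 without that library.

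The kainate genes summed to 110.0 ± 3.31 CPM per kb in cervical and 97.5 ± 2.45 CPM per kb in thoracic libraries (SD, n = 3 each), without overlap. Grik3 alone had means of 45.0 and 32.4 CPM per kb, so the difference of the sum was about that of Grik3. By their means, Grik2 and Grik4 were higher in cervical and Grik1 and Grik5 in thoracic libraries. Within that sum Grik3 took 40.9% ± 0.320 in cervical and 33.2% ± 0.946 in thoracic libraries (SD, n = 3 each). Grik5 took 45.7% ± 0.291 and 52.8% ± 0.514, and Grik1 took 1.14% ± 0.101 and 2.17% ± 0.0921. The shares of one sum depend on each other, so the larger thoracic share of Grik5 goes with its nearly equal CPM in both regions. No p is given for sums and shares, because the genes were chosen with results known.

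**Figure D3:**
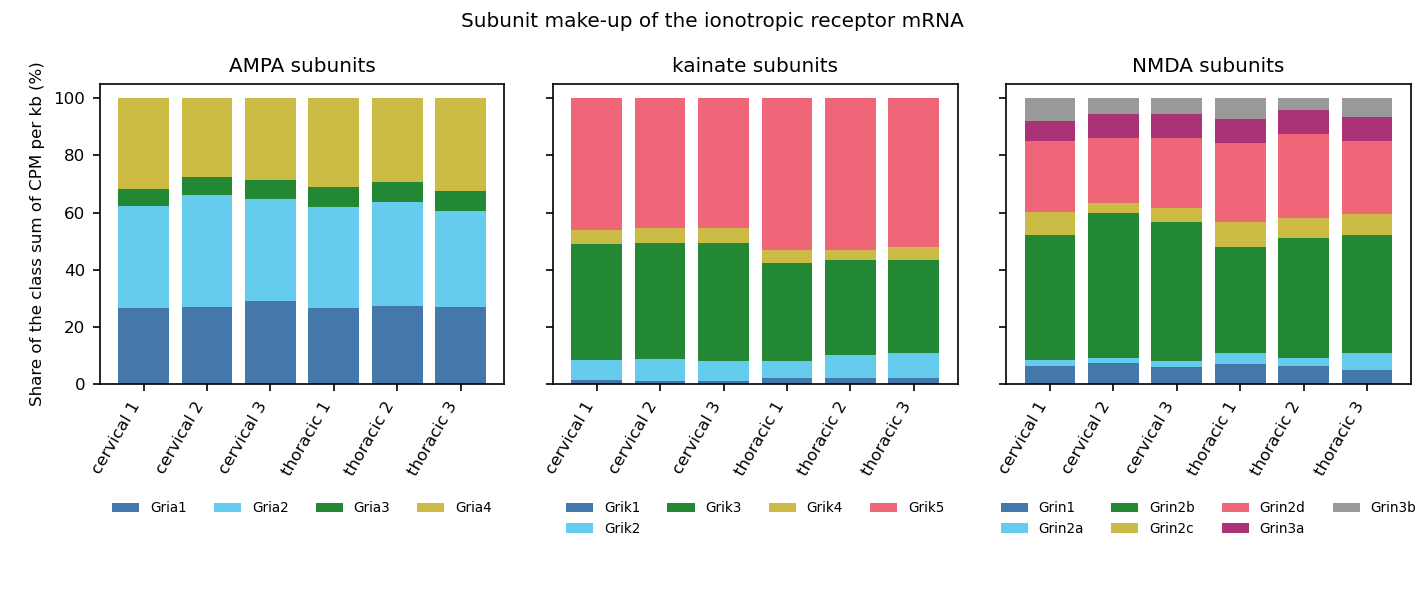
Share of each subunit gene in the summed CPM per kb of its receptor class, in percent, for the AMPA, kainate and NMDA genes in the 6 libraries. Within the kainate genes Grik3 takes 40.6 to 41.2% in the cervical and 32.4 to 34.3% in the thoracic libraries, and within the NMDA genes Grin2b is the largest part in each library.

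The start-site regions of the kainate genes Grik3 and Grik4, are shown because both genes had higher values in every cervical than in any thoracic library. They are the 250 bases before the start in RefSeq (GRCm38.p6), with matches to GGGCGG, the core of the GC box, on either strand in capitals.
Grik3: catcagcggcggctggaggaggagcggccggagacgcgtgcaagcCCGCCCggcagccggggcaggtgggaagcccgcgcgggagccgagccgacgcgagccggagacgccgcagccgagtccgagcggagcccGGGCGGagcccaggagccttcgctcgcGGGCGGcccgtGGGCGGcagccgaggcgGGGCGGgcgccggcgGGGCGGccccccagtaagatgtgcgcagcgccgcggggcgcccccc
Grik4: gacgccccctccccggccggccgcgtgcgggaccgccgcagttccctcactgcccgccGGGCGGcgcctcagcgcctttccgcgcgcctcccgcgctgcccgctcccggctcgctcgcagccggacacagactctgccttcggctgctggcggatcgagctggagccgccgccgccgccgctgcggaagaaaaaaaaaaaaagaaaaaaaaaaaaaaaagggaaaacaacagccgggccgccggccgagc
The Grik3 window is chr4:125490446-125490695 (plus strand) and the Grik4 window chr9:42944372-42944621 (minus strand). GGGCGG occurred 6 times in the Grik3 and 1 time in the Grik4 window, and at least once in 32.7% of all 32851 windows of this length. It was not particular to these genes: 11 of the 18 members with an entry had a match. The 18 members had 22 windows and a match in any of them counted, whereas the 32.7% is per window. Among the 11 was Grik5, which was not called, with 2 matches and a GC content of 75.2%. GC content of the Grik3 and Grik4 windows was 82.0 and 69.6%, against a median of 52.4% over all windows. The homeodomain core TAATTA and the Hox-Pbx motif TGATTNAT, searched on both strands, matched in neither, nor in any window of the 18 members with an entry. They were found in 4.8 and 2.8% of all windows. A window without these letters says nothing about whether a factor acts on the gene.

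NMDA receptors need the subunit GluN1, encoded by Grin1, together with GluN2 or GluN3 subunits, and the GluN2 type sets the kinetics. Grin2a encodes GluN2A, which in most of the nervous system increases after birth. It stood at 10.8, 8.98 and 9.51 CPM in the cervical and 19.9, 15.9 and 32.5 CPM in the thoracic replicates. The regions did not overlap, and thoracic replicate 3 was well above the other thoracic libraries. The thoracic mean exceeded the cervical one 2.33-fold (22.8 ± 8.63 against 9.76 ± 0.930 CPM, SD, n = 3 each, log2 fold change -1.22 with an SE of 0.22, edgeR adjusted p = 0.0443). Without thoracic replicate 3 the log2 fold change was -0.88 and the call was lost (edgeR adjusted p = 0.0622). It was also lost without cervical replicate 2 (0.160), cervical replicate 3 (0.188) or thoracic replicate 1 (0.0611), with limma-voom (adjusted p = 0.0977) and, by edgeR, when genes under a mean of 1 CPM were dropped (0.0545). With the replicate block the adjusted p of edgeR was 0.0020. Grin2a lies on chromosome 16 from 9385762 to 9813424 (mm39, minus strand).

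Grin2b, which encodes the GluN2B subunit typical of embryonic neurons, was the most abundant NMDA gene. It had 304, 387 and 342 CPM in cervical and 255, 305 and 324 CPM in thoracic replicates, with overlap (log2 fold change 0.22 with an SE of 0.10, edgeR adjusted p = 0.592). The ratio of Grin2b to Grin2a per kilobase was 20.4, 31.1 and 25.9 in cervical and 9.26, 13.8 and 7.21 in thoracic replicates. Grin2b therefore exceeded Grin2a in every library, by a factor that did not overlap between the regions. Of the 4 Grin2 genes, Grin2a made up 2.38% ± 0.323 per kilobase in cervical and 5.35% ± 1.72 in thoracic libraries (SD, n = 3 each). Grin2a already separated the regions by itself, so this ratio and share largely restate its difference and are not separate evidence.

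Grin2d, the gene of a slowly deactivating subunit of the embryonic brainstem and spinal cord, had 46.5, 47.0 and 46.3 CPM in cervical and 50.8, 57.2 and 54.1 CPM in thoracic replicates. The regions did not overlap, but the gene was not called (log2 fold change -0.21 with an SE of 0.07, edgeR adjusted p = 0.375, blocked 0.239). Grin2c stood at 11.7, 5.05 and 6.82 CPM in cervical and 12.4, 10.2 and 11.7 CPM in thoracic replicates (log2 fold change -0.55 with an SE of 0.25, edgeR adjusted p = 0.6002). Cervical replicate 1 was the library that overlapped the thoracic ones, and without it the log2 fold change was -0.95 (edgeR adjusted p = 0.0404). Grin1 had 16.6 to 22.2 CPM in cervical and 15.5 to 18.9 CPM in thoracic libraries (log2 fold change 0.11 with an SE of 0.13, edgeR adjusted p = 0.915). Per kilobase Grin1 reached 1.60 to 2.28 CPM against 10.3 to 15.6 CPM for Grin2b, although GluN1 is part of every NMDA receptor. The annotated exons add up to 9700 bases for Grin1 and 24842 for Grin2b, and mean CPM not divided by length was 18.05 and 319.5. Why Grin1 was lower was not tested. Of the exonic bases of Grin1, 1307 overlap the antisense gene Grin1os, which had a mean of 38.0 counts against 656.8 for Grin1. Of the GluN3 genes, Grin3a had 24.8 to 31.0 and 28.7 to 32.6 CPM (edgeR adjusted p = 0.885). Grin3b had 5.04 to 7.25 and 3.99 to 6.82 CPM (edgeR adjusted p = 0.996), and 32.1% of its exonic length overlaps Tmem259 on the opposite strand, with a mean of 3381 counts. The strand setting of the counting is not given in the sources used here, so the counts of Grin3b are uncertain. Overlaps on the opposite strand covered at most 13.5% of the exonic length of any other member, with partners at a mean of at most 38.0 counts except for Yif1a, which shares 14 bases with Cnih2. With the strand setting unknown, low counts of a partner do not show how many reads of these members were affected.

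None of the 4 AMPA receptor genes was called, either without or with the block. These receptors carry most fast excitatory current, and GluA2, the product of Gria2, makes them impermeable to calcium once edited. Gria2 had 318, 374 and 356 CPM in cervical and 304, 310.2 and 322 CPM in thoracic replicates. Thoracic replicate 3 exceeded cervical replicate 1, so the regions overlapped (log2 fold change 0.16 with an SE of 0.07, edgeR adjusted p = 0.529, unadjusted 0.0356). Gria1 had 92.2 to 111.8 and 89.6 to 99.6 CPM (log2 fold change 0.12 with an SE of 0.08, edgeR adjusted p = 0.786). Gria4, whose product is a fast-gating subunit, had 107.5 to 115.8 and 101.5 to 125.5 CPM (log2 fold change 0.01 with an SE of 0.08, edgeR adjusted p = 0.990). Gria3 had 34.0 to 41.3 and 37.4 to 42.8 CPM (log2 fold change -0.08 with an SE of 0.09, edgeR adjusted p = 0.913). Per kilobase Gria2 took 36.8% ± 1.96 in cervical and 35.1% ± 1.34 in thoracic libraries, Gria4 29.4% ± 2.18 and 30.9% ± 1.54, Gria1 27.5% ± 1.29 and 26.9% ± 0.376, and Gria3 6.29% ± 0.271 and 7.08% ± 0.168 (SD, n = 3 each). Only for Gria3 did these shares not overlap between the regions. Grid1, which encodes the delta receptor GluD1, a synaptic organiser that binds cerebellins, had 32.5 to 37.4 and 32.2 to 34.4 CPM (log2 fold change 0.06 with an SE of 0.08, edgeR adjusted p = 0.932).

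None of the metabotropic receptor genes was called without the block. Grm5, the gene of the Gq-coupled receptor mGlu5, had 11.5, 20.0 and 20.3 CPM in the cervical and 20.3, 30.7 and 34.0 CPM in the thoracic replicates. The replicate 1 libraries were the lowest of each region, thoracic replicate 1 nearly equalled the higher cervical libraries, and within each replicate number the thoracic library was higher, by 0.82, 0.62 and 0.74 on the log2 scale. The log2 fold change was -0.71 (SE 0.22, edgeR adjusted p = 0.323). With the replicate block it was -0.73 (SE 0.10, edgeR adjusted p = 0.00125). Grm4, the gene of a presynaptic Gi-coupled receptor of group III, stood at 20.4, 23.3 and 18.1 CPM in cervical and 29.8, 27.2 and 27.9 CPM in thoracic replicates, with no overlap. Its log2 fold change was -0.46 (SE 0.11, edgeR adjusted p = 0.1253), and the block called it (adjusted p = 0.0334). Grm4 lies on chromosome 17 from 27641361 to 27740377 (mm39, minus strand) and Grm5 on chromosome 7 from 87233376 to 87784115 (mm39, plus strand).

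**Figure D4:**
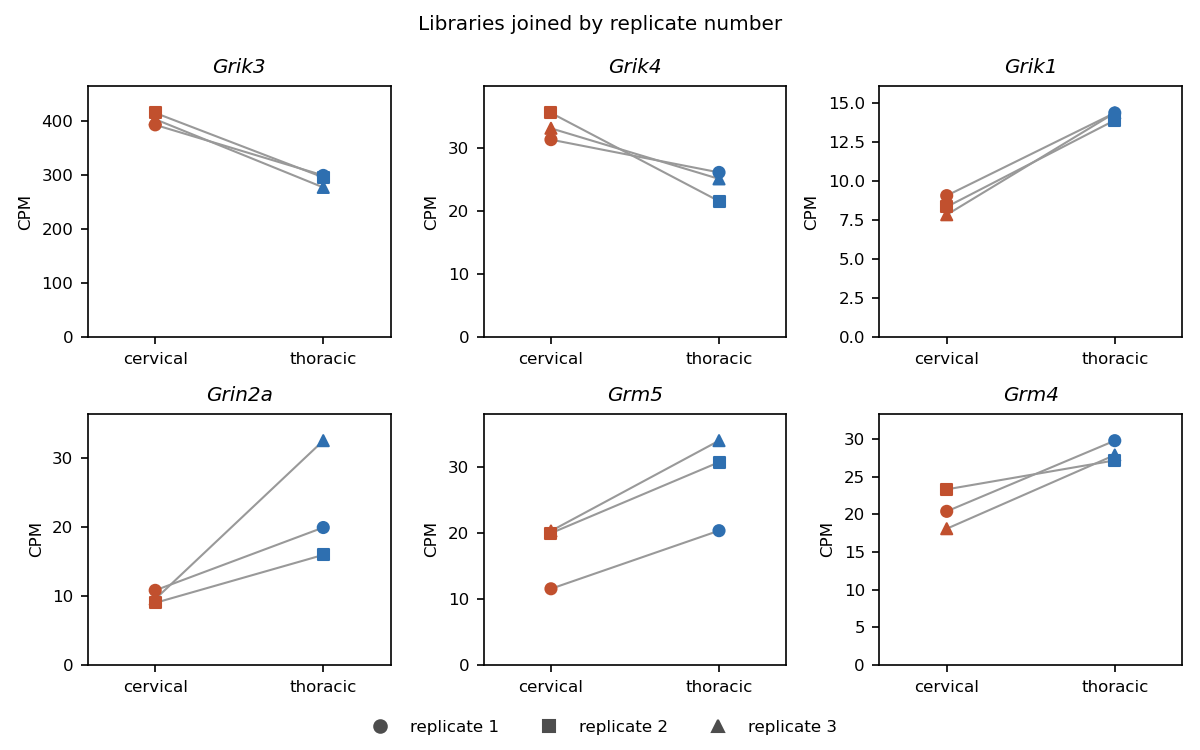
CPM of the 6 members called with the replicate block, with cervical (red) and thoracic (blue) libraries of the same replicate number joined by a line and symbols giving the number. All 3 lines fall toward thoracic for Grik3 and Grik4 and climb for Grik1, Grin2a, Grm5 and Grm4, and the Grm5 lines are nearly parallel. The block favours genes whose pairs agree, so the shared direction of the lines is not separate evidence.

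Grm7, a further group III gene, had 7.60, 13.1 and 10.1 CPM in cervical and 9.44, 16.8 and 13.0 CPM in thoracic replicates. Its replicate 1 libraries were also the lowest of each region (log2 fold change -0.34 with an SE of 0.23, edgeR adjusted p = 0.794, blocked 0.257). Grm8, also of group III, had 7.997 to 9.42 and 5.99 to 9.36 CPM (edgeR adjusted p = 0.885). Of group II, whose receptors act as autoreceptors, Grm2 had 5.45 to 6.90 and 6.58 to 9.08 CPM (log2 fold change -0.36 with an SE of 0.17, edgeR adjusted p = 0.612). Grm3 had 10.6 to 14.4 and 9.17 to 11.7 CPM (log2 fold change 0.22 with an SE of 0.15, edgeR adjusted p = 0.797).

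The auxiliary subunit genes were not called. Neto1 and Neto2 encode membrane proteins that slow the gating of kainate receptors. Neto1 had 6.11, 7.31 and 8.57 CPM in cervical and 9.09, 9.63 and 9.97 CPM in thoracic replicates, with no overlap (log2 fold change -0.38 with an SE of 0.15, edgeR adjusted p = 0.502). Neto2, the more abundant per kilobase, had 84.2 to 91.7 and 83.4 to 89.6 CPM (log2 fold change 0.02 with an SE of 0.06, edgeR adjusted p = 0.970). The cornichon genes encode partners of AMPA receptors. Cnih2 had 144.6 to 150.7 and 134.5 to 162.7 CPM (log2 fold change 0.0039 with an SE of 0.07, edgeR adjusted p = 0.996), and Cnih3 had 1.502 to 2.11 and 1.63 to 2.78 CPM (edgeR adjusted p = 0.928).

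Of 63 tested genes for other proteins of glutamate synapses, 1 was called toward cervical and 2 toward thoracic (0.191% and 0.350% of all genes). Their median log2 fold change was -0.02, against 0.0083 over all genes. With the block 1 was called toward cervical and 6 toward thoracic (0.573% and 1.39% of all genes). These genes too were listed with earlier results of these data known. Among 16 further AMPA auxiliary and assembly genes, Gsg1l, the gene of an AMPA receptor auxiliary subunit that reduces the current, rose in thoracic libraries (14.2, 16.4 and 15.7 CPM in cervical, 22.2, 23.7 and 23.3 CPM in thoracic replicates, log2 fold change -0.58 with an SE of 0.10, edgeR adjusted p = 0.0344). The block also called the auxiliary subunit genes Shisa6 (log2 fold change -0.66) and Shisa9 (-1.15) toward thoracic, with edgeR adjusted p of 0.00403 and 0.0493. The most abundant gene of this list, Olfm1, was not called (edgeR adjusted p = 0.667). Of 10 tested secreted organisers of receptors, the pentraxin gene Nptx1 rose in thoracic libraries (69.6, 76.2 and 75.5 CPM against 90.5, 97.4 and 92.7 CPM, log2 fold change -0.34 with an SE of 0.06, edgeR adjusted p = 0.0484). The block added its membrane-bound partner Nptxr and the cerebellin Cbln1, a ligand of delta receptors, with edgeR adjusted p of 0.0445 and 0.0202 and log2 fold changes of -0.31 and -0.46. Leaving out any 1 of the 6 libraries ended the calls of both Gsg1l and Nptx1 (edgeR adjusted p from 0.0666 to 0.145 and from 0.0892 to 0.186).

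Of the 3 RNA editing genes, Adarb2, which encodes a brain-type member of the ADAR family without known editing activity, rose in cervical libraries (126.0, 127.9 and 124.9 CPM against 82.5, 86.8 and 104.7 CPM, log2 fold change 0.47 with an SE of 0.08, edgeR adjusted p = 0.0394). It was called in 2 of the 6 leave-one-out fits, those without cervical replicate 1 or thoracic replicate 3. Adarb1, whose product edits the Q/R codon of Gria2 shown above, had 36.1 to 39.6 and 33.0 to 38.0 CPM (log2 fold change 0.06, edgeR adjusted p = 0.936), and Adar was not called either (0.932). None of 20 scaffold genes was called, with Homer2 having the smallest adjusted p (0.187) and Shank1 the highest level. None of 14 genes of glutamate transport and synthesis was called. Slc17a6, the vesicular glutamate transporter of excitatory neurons, had 103.0 to 105.1 CPM in cervical and 101.0 to 128.9 CPM in thoracic libraries (edgeR adjusted p = 0.708). The neutral amino acid transporter gene Slc1a4 had the smallest adjusted p of that list (0.393) and the glutamate transporter gene Slc1a2 the highest level.

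The libraries held more than motor neurons. Each of 12 motor neuron genes was detected and tested, and none was called without the block. Their sum was 1106 to 1717 CPM in cervical and 1310 to 1875 CPM in thoracic libraries. Slit2 was its largest part (621 to 774 and 679 to 997 CPM), while Chat had 14.6 to 37.9 and 21.6 to 35.5 CPM. Sums of 8 inhibitory interneuron genes were 1518 to 1693 and 1272 to 1329 CPM, and Pax2 and Slc6a5 were called toward cervical. Sums of 9 excitatory interneuron genes were 254 to 265 and 288 to 341 CPM, and Sim1 and Lmx1b were called toward thoracic. With the block 4 motor neuron, 3 progenitor and 2 mesenchyme genes were called toward thoracic. The inhibitory sum moved in the direction of Grik3 and Grik4, and the excitatory sum in that of Grik1, Grin2a, Grm5 and Grm4 as did those block calls. The part of other cells in these results was not tested. Sums of 8 neural progenitor genes were 937 to 1195 and 1129 to 1470 CPM and overlapped, with none called without the block. Sums for 6 sensory ganglion genes (16.8 to 39.5 and 12.3 to 21.1 CPM), 5 mesenchyme genes (13.6 to 148.4 and 84.0 to 156.8 CPM), 4 endothelial, 4 macrophage and 5 erythroid genes (each at most 11.03 CPM) overlapped between the regions. Of 5 Schwann and glial genes, Foxd3, which V1 interneurons also express, made up most of the sum and was called toward cervical, with sums of 240.0 to 260.1 and 188.4 to 197.6 CPM. No gene of these lists was at 0 in all libraries.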

How the data were processed

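The deposited values are read counts per gene from the authors' pipeline: the submitters' processing notes name FastQC 0.11.9, STAR 2.7.5b, featureCounts 2.0.1 and the build mm39. Libraries came from 10 to 20 ng of RNA, with a stranded kit and 15 PCR cycles, per the labels' protocols. No source used here gives the annotation release or the strand setting. The 28 members and all lists were chosen with earlier results of these data known.

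Genes were kept by edgeR's default low-count filter (edgeR 4.0.16 in R 4.3.3, minimum count of 10), which left 21972 genes and removed 34833 with 0.117% of counts. TMM factors were 0.989 to 1.01. The regions were compared by edgeR's quasi-likelihood test without covariates, p-values were adjusted over all genes tested by Benjamini-Hochberg, and genes below 0.05 were called. SEs were derived from the log2 fold change and the square root of its F statistic. Biological variation between replicates, as edgeR's common coefficient, was 15.4%. Replicate numbers from the titles are shared by the regions. After subtracting each region's mean, same-numbered libraries correlated at 0.230, 0.225 and 0.270 and others at -0.017 or below. Subtracting the mean makes the negative values follow in part from the positive ones, so they are not separate evidence. The numbers were taken to pair the libraries from these same data, and the block is given as an alternative. No source used here says whether a number marks a shared litter or day. Alternatives were DESeq2 1.42.0, limma-voom (limma 3.58.1), other scalings and filters, the replicate block, and leaving out each library. All members are named. Of the other synapse genes, those named are the called ones, and the most abundant gene and the one with the smallest adjusted p per list. Shisa6, Shisa9, Cbln1, Nptxr, Slc17a6 and Adarb1 were named after their values were seen. CPM per kb is the TMM-scaled CPM divided by the deposited exonic length. Sequences were matched by symbol: 18 of the 28 members had a RefSeq start-site entry (GRCm38.p6). The reference is of another build than the counts, and coordinates of one were not converted to the other.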

Additional observations from a re-analysis of the deposited data

How the results depend on the processing

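With the replicate block, 126 genes were called toward cervical and 306 toward thoracic in all, against 42 and 77 without it, and among members 2 and 4 against 1 and 2. The block added Grik4 (log2 fold change 0.46), Grm5 (-0.73) and Grm4 (-0.46), kept Grik3, Grik1 and Grin2a, and changed no other member's call. Among the other synapse genes it called 6 toward thoracic against 2. DESeq2 called 126 and 283 genes in all, 2 members toward cervical and 3 toward thoracic, and 6 other synapse genes toward thoracic. Without the low-count filter 232 and 515 genes were called, with 2 and 5 members and 7 other synapse genes toward thoracic. For members called toward thoracic, limma-voom and a mean CPM of at least 1 each left 1, Grik1, and for the other synapse genes limma-voom, a mean CPM of at least 1 and library totals only each left 1. The cause of these shifts was not tested. Leaving out 1 library at a time, genes called in all ranged from 1 to 48 toward cervical and from 8 to 111 toward thoracic, members from 0 to 1 and from 0 to 3, and other synapse genes from 0 to 1 and stayed at 0. Over all genes the lowest count in each direction came without cervical replicate 3. Members called toward cervical fell to 0 without that library, and members called toward thoracic were 0 without cervical replicate 2, cervical replicate 3, thoracic replicate 1 or thoracic replicate 3. These fits have fewer samples. Called members kept their direction in all 13 alternatives. Of the members that were not called, 7 changed sign when 1 library was left out, with log2 fold changes from -0.0504 to 0.103 (Gria4), -0.0460 to 0.190 (Grik2), -0.0285 to 0.192 (Grin1), -0.191 to 0.138 (Grin3b), -0.0140 to 0.0549 (Neto2), -0.0552 to 0.0848 (Cnih2) and -0.367 to 0.0285 (Cnih3), and so did Slc1a2 among the other synapse genes (-0.0690 to 0.00977). Without division by gene length the log2 ratio of region means of the kainate sum was 0.226 against 0.175, and that of the NMDA sum 0.0796 against -0.0281. The median log2 fold change of all genes lay between 0.0025 and 0.0102 over these settings. Depth left Grm6 untested, with 0 counts in 1 library of each region.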

Other observations

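Grm7 was lower in the cervical library of each same-numbered pair although its regions overlapped, with log2 ratios of -0.31, -0.36 and -0.36 in pairs 1, 2 and 3. Its adjusted p in edgeR with the replicate block was 0.257. The kainate sum exceeded the AMPA sum per kilobase in each library, by factors of 1.70 to 1.87 in cervical and 1.55 to 1.82 in thoracic libraries.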
